A study of Homo sapiens with 6 samples.

Results

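The 31 genes described here make cholesterol from acetyl-CoA, or take it up, sense it, export it or store it. They were taken by gene symbol, with no measured value in the rule, but the list was chosen with earlier results of these data known. Of the 31 genes, 30 were found among the 11911 genes of the table (ABCG1, a sterol exporter gene, was not analysed here). Of the 30 genes, 19 act in synthesis and 11 in sensing, uptake, transport, export or esterification. All 30 passed the filter on low values. RNA was sequenced from RS4;11, a human leukemia cell line (acute lymphoblastic, of B-cell precursors) that carries a KMT2A::AFF1 fusion. The groups are 3 libraries titled as with asparagine and 3 titled as without it (asparagine-depleted below), the latter collected 16 hours after withdrawal. For both groups the labels enter growth in a mix of DMEM and IMDM with fetal bovine serum, and then resuspension in medium free of asparagine with dialyzed serum. Serum carries cholesterol in lipoproteins, and the labels do not settle which serum the group with asparagine was collected in. The short name of the depleted columns may stand for asparaginase, an enzyme that removes asparagine.

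Cells build cholesterol by joining acetyl-CoA units into mevalonate, turning mevalonate into isoprenoid units, joining these into squalene and closing squalene into lanosterol, which a series of enzymes trims to cholesterol. The transcription factor SREBP-2 drives most of these genes when sterols in the endoplasmic reticulum are low. INSIG proteins hold its escort SCAP there when sterols are high. The oxysterol receptors LXR-alpha and LXR-beta act in the opposite sense and induce genes that export cholesterol or limit its uptake. Not every target of SREBP or LXR is marked as such below. The activity of these factors was not measured, and whether it changed was not tested.

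Read totals in the table were 29971364 to 51127073 per library. One depleted library stood apart. Relative to the mean with asparagine, log2 levels fell with transcript GC content by 0.70 and 0.74 per 10 percentage points in depleted libraries 2 and 3, and by 0.038 in depleted library 1. Across genes, depleted libraries 2 and 3 correlated at 0.996 (Pearson's r of log2 values), and depleted library 1 with them at 0.940 and 0.933. Changes are therefore given also after a GC correction, which removed the trend with GC content from each library. Some are given without depleted library 1 as well. On its own that fit does not correct for GC content. It keeps the trend of depleted libraries 2 and 3, and its depleted group holds only these near-equal libraries. All 10 B-precursor markers on a fixed list were in the table, with summed levels of 4042 to 4292 CPM with asparagine and 3446 to 4213 in depleted libraries. None of 11 T-cell, myeloid and erythroid markers had a row in the table, whose genes all reached 0.540 CPM in some library. The values are scaled to library size, so a change in total RNA per cell could not be seen. Because these are bulk libraries, fewer cells of a type and less RNA per cell cannot be told apart.

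Most genes of the synthesis pathway were lower in the asparagine-depleted cells. Those of sensing, transport and export were called lower or higher about as often as genes at large, and most did not pass the test. Of the 19 synthesis genes, 14 were lower and 0 higher (limma, Benjamini-Hochberg adjusted p under 0.05), where 26.2% of all 11892 genes tested were lower and 25.1% higher. At an unadjusted p under 0.05 the number of higher synthesis genes was also 0. The median log2 fold change of the synthesis genes, depleted minus with asparagine on the log2(CPM + 1) scale, was -1.21, beside 0.010 over all genes tested. Of the other 11 genes, 2 were lower, 3 were higher and 6 did not pass the test, with a median of 0.14, which was -0.016 without depleted library 3 and 0.035 without depleted library 2. When any library other than depleted library 1 was left out, these counts were 1 (INSIG1) and 1 (ABCA1). Calls over all genes also became fewer in each of these fits, from 3116 lower and 2987 higher. They were fewest without library 2 with asparagine, at 1814 lower and 1728 higher. The loss of calls was thus not limited to these 11 genes. Their counts were 2 lower and 4 higher after the GC correction, and 4 lower and 5 higher without depleted library 1. The difference between the synthesis genes and the others was not tested, because the members were chosen with results known.

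The shift of the synthesis genes was present in each depleted library. Their median difference from the mean with asparagine reached -1.09, -1.31 and -1.30 in depleted libraries 1 to 3, where the same median over all genes was 0.016, -0.0012 and -0.0059. In depleted library 1 alone, 18 of the 19 lay below the mean with asparagine. After the GC correction 16 of the 19 were lower and 0 higher (34.4% and 35.1% of the 11352 genes with a GC value), with a median of -1.19. Without depleted library 1 the counts were 15 lower and 2 higher, beside 41.3% and 40.5% of all genes. With both steps together they were 16 lower and 0 higher, beside 38.7% and 39.6%. Summed over the 19 genes, the level was 2976, 3047 and 2986 CPM in the libraries with asparagine and 1482, 1739 and 1799 CPM in the depleted ones. The groups did not overlap in this sum. Gene by gene, every depleted value was below every value with asparagine in 14 of the 19, as in 30.8% of all genes.

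**Figure D1:**
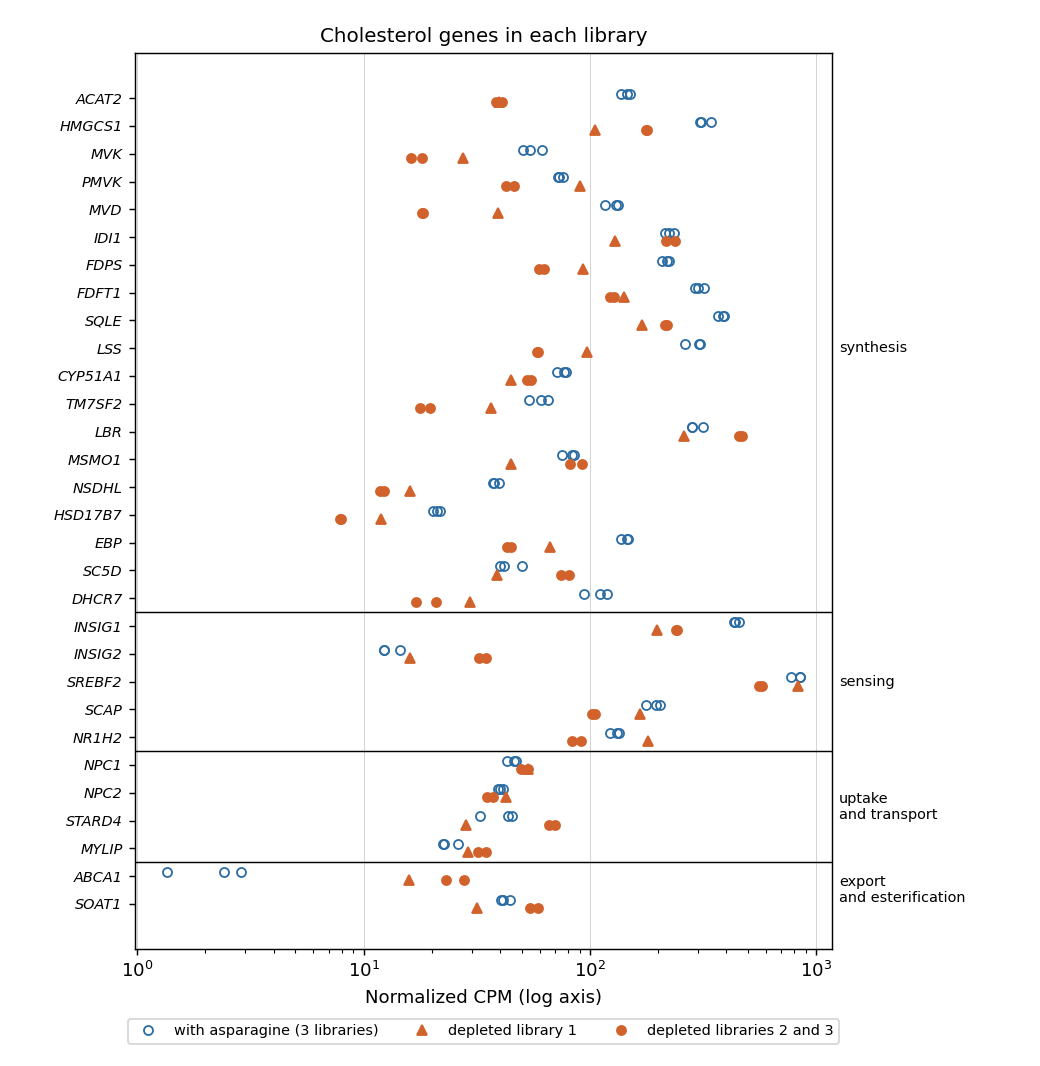
Normalized CPM (log axis) of each of the 30 genes in the 6 libraries, grouped by role, with open blue circles for libraries with asparagine, a filled triangle for depleted library 1 and filled circles for depleted libraries 2 and 3. For 14 of the 19 synthesis genes all depleted values lie left of all values with asparagine, and ABCA1 shows the widest gap to the right.

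Promoter letters are shown for 7 genes: 3 synthesis genes that fell (MVD, FDPS and NSDHL), the sensors INSIG1 and INSIG2 that moved apart, the exporter ABCA1, and SREBF2, which did not pass the test and is shown for the regulator it encodes. Each run is the 250 bases before the RefSeq start on GRCh38.p14, 5′ to 3′ on the gene's strand. Capitals mark matches on either strand to CCAAT (the NF-Y box), to the classical 10-base sterol regulatory element, to CACGTG (an E-box) and to a pair of LXR half-sites 4 bases apart. The motifs and the genes shown were chosen after the values were seen, and nothing was tested on them. SREBP is known to work beside NF-Y at many of its promoters. INSIG2 has 2 windows in the reference table, neither with a match, and the first is shown.
MVD (chr16:88663092-88663341, minus strand): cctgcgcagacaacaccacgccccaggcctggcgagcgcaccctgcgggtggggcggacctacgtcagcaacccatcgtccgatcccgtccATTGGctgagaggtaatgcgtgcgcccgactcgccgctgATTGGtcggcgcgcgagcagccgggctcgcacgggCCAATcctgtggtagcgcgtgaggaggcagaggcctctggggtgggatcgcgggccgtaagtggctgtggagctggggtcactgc
FDPS (chr1:155308616-155308865, plus strand): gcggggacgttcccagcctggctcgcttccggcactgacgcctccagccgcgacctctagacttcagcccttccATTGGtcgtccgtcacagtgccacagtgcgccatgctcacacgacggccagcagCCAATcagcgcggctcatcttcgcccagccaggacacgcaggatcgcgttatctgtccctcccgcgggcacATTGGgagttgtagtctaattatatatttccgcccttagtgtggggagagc
NSDHL (chrX:152830813-152831062, plus strand): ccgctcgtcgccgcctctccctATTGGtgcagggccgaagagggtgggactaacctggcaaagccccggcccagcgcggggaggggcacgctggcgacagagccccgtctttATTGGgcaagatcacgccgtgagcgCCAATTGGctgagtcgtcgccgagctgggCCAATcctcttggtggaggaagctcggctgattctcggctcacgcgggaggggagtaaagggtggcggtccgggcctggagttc
INSIG1 (chr7:155297628-155297877, plus strand): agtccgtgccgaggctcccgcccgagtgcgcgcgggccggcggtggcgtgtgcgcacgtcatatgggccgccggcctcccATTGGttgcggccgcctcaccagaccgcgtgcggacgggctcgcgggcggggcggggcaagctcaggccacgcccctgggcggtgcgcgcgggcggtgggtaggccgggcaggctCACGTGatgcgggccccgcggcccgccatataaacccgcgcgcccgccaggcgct
INSIG2 (chr2:118088221-118088470, plus strand): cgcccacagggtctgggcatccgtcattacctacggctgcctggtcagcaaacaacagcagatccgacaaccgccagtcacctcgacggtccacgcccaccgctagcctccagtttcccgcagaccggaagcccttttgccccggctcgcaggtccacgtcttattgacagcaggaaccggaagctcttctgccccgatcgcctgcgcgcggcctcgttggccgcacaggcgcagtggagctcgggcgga
SREBF2 (chr22:41832855-41833104, plus strand): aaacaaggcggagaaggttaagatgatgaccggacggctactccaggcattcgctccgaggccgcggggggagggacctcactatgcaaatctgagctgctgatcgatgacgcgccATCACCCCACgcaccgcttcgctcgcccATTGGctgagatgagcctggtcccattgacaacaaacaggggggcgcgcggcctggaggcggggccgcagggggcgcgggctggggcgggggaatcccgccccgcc
ABCA1 (chr9:104928156-104928405, minus strand): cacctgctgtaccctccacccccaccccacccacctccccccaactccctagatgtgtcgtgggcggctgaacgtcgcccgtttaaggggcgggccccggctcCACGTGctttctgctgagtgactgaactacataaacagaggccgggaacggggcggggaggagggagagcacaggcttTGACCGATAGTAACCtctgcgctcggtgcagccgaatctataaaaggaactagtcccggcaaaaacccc

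CCAAT was the pattern found in the most synthesis promoters. It was present in 13 of the 16 synthesis genes with a window, against 42.0% of the 8985 genes of the table that have one (32.0% of all 35116 windows). MVK and NSDHL held 5 matches each, and 2 of those in NSDHL overlap in the run CCAATTGG. PMVK, CYP51A1 and LBR held 0. Among the other 11 genes 6 held it, INSIG2 not among them. The sterol element was found in SREBF2 alone of the 27 members with a window (0.0556% of the 8985 genes), 134 to 125 bases before the start. The E-box was in 4 of the 27, namely SC5D, INSIG1, SCAP and ABCA1, against 11.5% of the 8985 genes, and that of INSIG1 begins 55 bases before the start. The spaced half-sites in the spelling searched (0.0668% of the 8985 genes) were in ABCA1 alone of the members, 69 to 55 bases before the start. LXR sites spelled otherwise would have been missed, so the lack of a match in other members says nothing about LXR. A match is a run of letters and not evidence of binding.

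The first steps make mevalonate and isopentenyl diphosphate. ACAT2, whose product condenses acetyl-CoA in the cytosol (chromosome 6, 159760328 to 159779055 on GRCh38), stood at 137, 150.02 and 147 CPM in libraries 1, 2 and 3 with asparagine and at 39.5, 38.3 and 40.8 CPM in depleted libraries 1, 2 and 3. The groups were far apart and the 3 depleted libraries nearly equal. ACAT2 fell 3.66-fold (log2 fold change -1.84, SE 0.11, limma adjusted p = 0.000125), and the change was -1.84 after the GC correction. HMGCS1, the cytosolic HMG-CoA synthase gene, had 308, 309.9 and 342 CPM with asparagine and 105, 178 and 179 CPM in depleted cells. Every depleted value was below every value with asparagine, and depleted library 1 was the lowest. HMGCS1 fell 2.08-fold (log2 fold change -1.09, SE 0.22, limma adjusted p = 0.00722), and the change was -1.62 after the GC correction.

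Of the kinases that follow, MVK passed the test and PMVK did not. MVK, mevalonate kinase, had 61.4, 54.3 and 50.6 CPM with asparagine and 27.6, 18.1 and 16.2 CPM when depleted. MVK fell 2.69-fold (log2 fold change -1.41, SE 0.21, limma adjusted p = 0.00244), with no overlap between the groups, and the change was -0.88 after the GC correction. PMVK, phosphomevalonate kinase, had 72.1, 76.3 and 72.9 CPM with asparagine and 90.2, 46.4 and 42.5 CPM in depleted cells. Depleted library 1 was thus the highest of all 6 and the other depleted libraries the lowest. PMVK did not pass the test (log2 fold change -0.38, 95% interval -1.04 to 0.28, limma adjusted p = 0.276), nor after the GC correction (0.11, adjusted p = 0.385), while without depleted library 1 its change was -0.72 (adjusted p = 1.53e-05).

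MVD, which decarboxylates mevalonate diphosphate (chromosome 16, 88651935 to 88663161), showed the largest log2 decrease of the 30 genes under the scaling as deposited. It had 130.5, 133 and 117 CPM with asparagine and 39.1, 18.2 and 18.4 CPM in depleted libraries. The highest depleted value, in library 1, was still far below the lowest with asparagine. From 127 ± 8.58 to 25.2 ± 12.03 CPM (mean ± SD, n = 3 per group), the log2 fold change was -2.37 (SE 0.29, limma adjusted p = 0.00121) and -1.66 after the GC correction. IDI1, which isomerizes the isoprenoid unit, had 224, 215 and 235 CPM with asparagine and 128, 216 and 238 CPM when depleted. Only depleted library 1 lay below the range with asparagine. IDI1 did not pass (log2 fold change -0.26, 95% interval -0.81 to 0.30, limma adjusted p = 0.381), and after the GC correction it was lower at -0.75 (adjusted p = 5.01e-05).

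All 4 genes from isoprenoid units to lanosterol fell. FDPS, farnesyl diphosphate synthase, had 218, 223 and 208 CPM with asparagine and 93.02, 59.6 and 62.4 CPM in depleted cells. FDFT1, squalene synthase, had 300.4, 319 and 291 CPM with asparagine and 142, 122 and 128 CPM when depleted. In both genes the groups were clearly separate, by 3.02-fold for FDPS (log2 fold change -1.61, SE 0.19, limma adjusted p = 0.00098) and 2.32-fold for FDFT1 (log2 fold change -1.21, SE 0.11, limma adjusted p = 0.000496). SQLE, squalene epoxidase, had 367, 391 and 387 CPM with asparagine and 169.7, 214 and 219.6 CPM when depleted. LSS, which closes the sterol rings, had 302, 307 and 263 CPM with asparagine and 96.9, 59.2 and 58.6 CPM when depleted. Depleted library 1 was the lowest of all for SQLE and the highest of the depleted ones for LSS. Their log2 fold changes were -0.93 (SE 0.13, limma adjusted p = 0.00208) and -2.04 (SE 0.21, adjusted p = 0.000703). After the GC correction the 4 genes lay closer together, at -1.35, -1.30, -1.28 and -1.56 for FDPS, FDFT1, SQLE and LSS.

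The enzymes that turn lanosterol into cholesterol split into those that fell and a few that did not pass the test. DHCR7, the last reductase (chromosome 11, 71428193 to 71452868), had 119, 111 and 94.5 CPM with asparagine and 29.6, 20.8 and 17.1 CPM when depleted. The groups did not overlap, and DHCR7 fell 4.81-fold (log2 fold change -2.24, SE 0.21, limma adjusted p = 0.000518; -1.82 after the GC correction). NSDHL, which with its partners removes the methyl groups at carbon 4, had 37.6, 39.8 and 37.4 CPM with asparagine and 16.03, 12.3 and 11.9 CPM when depleted. EBP, the sterol isomerase gene, had 146, 147 and 138 CPM with asparagine and 66.4, 44.8 and 42.8 CPM when depleted. HSD17B7, a sterol ketoreductase gene, had 20.3, 21.8 and 21.00 CPM with asparagine and 11.9, 7.88 and 7.91 CPM when depleted. In all of them every depleted library was lower than every library with asparagine. Their log2 fold changes were -1.46, -1.49 and -1.13 for NSDHL, EBP and HSD17B7 (limma adjusted p = 0.000697, 0.00123 and 0.00310), and -1.36, -1.14 and -1.19 after the GC correction. CYP51A1, the lanosterol demethylase gene, had 71.5, 76.7 and 78.1 CPM with asparagine and 44.8, 52.7 and 54.9 CPM when depleted. It showed the smallest decrease of the 14 genes that passed (log2 fold change -0.57, SE 0.13, limma adjusted p = 0.0116). That call was lost without library 2 or 3 with asparagine (adjusted p = 0.0596 and 0.0556), and the change was -1.04 after the GC correction.

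MSMO1 and SC5D, a methyl oxidase and a desaturase gene, gave no call. MSMO1 had 75.6, 85.01 and 83.4 CPM with asparagine and 44.8, 81.7 and 92.1 CPM in depleted libraries. SC5D had 41.8, 40.1 and 50.4 CPM with asparagine and 38.8, 74.2 and 80.8 CPM when depleted. In each the value of depleted library 1 was the lowest of all 6, whereas libraries 2 and 3 lay inside or near the range with asparagine for MSMO1 and above it for SC5D. The log2 fold changes were -0.22 for MSMO1 (95% interval -0.85 to 0.41, limma adjusted p = 0.509) and 0.48 for SC5D (-0.19 to 1.15, adjusted p = 0.189). After the GC correction they were -0.85 (adjusted p = 0.000449) and -0.15 (adjusted p = 0.0814), so MSMO1 was then lower and SC5D did not pass. Without depleted library 1, SC5D was higher by 0.81 (adjusted p = 5.05e-05).

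TM7SF2 and LBR encode sterol reductases that act at the same step, and LBR is also a protein of the inner nuclear membrane. TM7SF2 had 60.8, 65.1 and 53.9 CPM with asparagine and 36.7, 19.7 and 17.7 CPM when depleted, and it fell 2.43-fold (log2 fold change -1.31, SE 0.27, limma adjusted p = 0.00796; -0.69 after the GC correction). LBR had 282, 282 and 317 CPM with asparagine and 262, 454 and 470.1 CPM when depleted. Depleted library 1 lay just below the range with asparagine and libraries 2 and 3 well above it. LBR did not pass the test (0.38, 95% interval -0.17 to 0.93, limma adjusted p = 0.204; -0.083 after the GC correction and 0.65 without depleted library 1, adjusted p = 1.29e-05). Per kilobase of transcript, the ratio of LBR to TM7SF2 levels was 1.59, 1.48 and 2.01 with asparagine and 2.43, 7.90 and 9.06 in depleted libraries. All depleted ratios were above those with asparagine, by little in depleted library 1. GC content is 41.6% for LBR and 62.7% for TM7SF2. The ratios are not GC-corrected, so they carry the GC trend of depleted libraries 2 and 3. This pair and the INSIG pair were chosen after the values were seen, and their ratios were not tested.

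The synthesis genes that gave no call were mostly those with AT-rich transcripts. The GC content of the 19 ran from 38.1% in MSMO1 to 65.2% in MVD. Of the 7 under 45% GC (MSMO1, SC5D, HMGCS1, IDI1, CYP51A1, LBR and SQLE), 3 passed the test as lower, and of the 12 above it, 11 did. The limit was chosen after the values were seen. The shares of all genes called lower in each GC class are not given here. These counts alone therefore cannot be told apart from the GC trend over all genes. In the 7 AT-rich genes the median difference from the mean with asparagine in depleted libraries 1 to 3 was -0.80, -0.053 and 0.086. Over all 3531 tested genes under 45% GC it was 0.040, 0.72 and 0.77, so in each depleted library the median of the 7 lay below that of all AT-rich genes. In the other 12 it was -1.15, -1.61 and -1.72, beside -0.0080, -0.36 and -0.38 over the 7821 other genes with a GC value.

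Across the 19 genes, which share libraries and are not replicates, Pearson's r between GC content and the difference in depleted libraries 1 to 3 was -0.25, -0.81 and -0.83. After the correction it was -0.18, -0.21 and -0.29. The 3 synthesis genes without a call after the correction were PMVK, LBR and SC5D. What gave libraries 2 and 3 their GC trend was not tested.

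**Figure D2:**
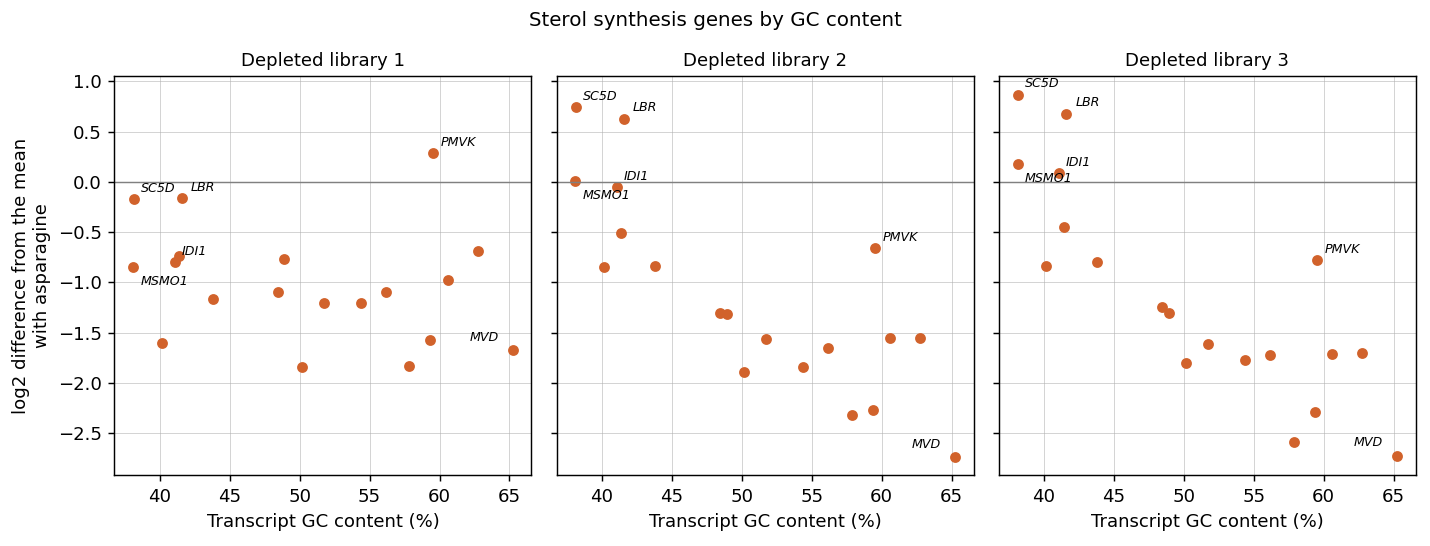
Log2 difference of each of the 19 synthesis genes from its mean with asparagine (vertical axis) against transcript GC content in percent (horizontal axis), with 1 panel per depleted library. Points fall with GC content in libraries 2 and 3 (Pearson's r -0.81 and -0.83) and less so in library 1 (-0.25), where 18 of 19 points lie below 0.

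Among the sensing genes the INSIG pair moved apart. INSIG1, itself a classical SREBP target (chromosome 7, 155297776 to 155310235), had 433, 456 and 436 CPM with asparagine and 198, 242 and 241 CPM when depleted. The groups did not overlap, and INSIG1 fell 1.95-fold (log2 fold change -0.96, SE 0.12, limma adjusted p = 0.00134; -1.14 after the GC correction). INSIG2, whose protein also retains SCAP (chromosome 2, 118088452 to 118110997), had 12.3, 12.3 and 14.5 CPM with asparagine and 16.1, 34.9 and 32.5 CPM when depleted. Depleted library 1 was only slightly above the highest value with asparagine, and libraries 2 and 3 were over it by far. INSIG2 rose 2.14-fold (log2 fold change 0.97, SE 0.29, limma adjusted p = 0.0292), where 25.1% of all genes were higher.

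The INSIG2 increase was smaller after the GC correction, at 0.30 on the log2 scale (limma adjusted p = 0.0245). The call was lost when any library other than depleted library 1 was left out (adjusted p 0.0606 to 0.0950). Per kilobase of transcript, the ratio of INSIG2 to INSIG1 levels was 0.0190, 0.0180 and 0.0222 with asparagine and 0.0547, 0.0967 and 0.0904 in depleted libraries. INSIG1 thus remained the more abundant of the pair in all 6 libraries, and each depleted ratio was above each ratio with asparagine, also in depleted library 1. These ratios too are not GC-corrected, and GC content is 37.2% for INSIG2 and 46.7% for INSIG1.

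**Figure D3:**
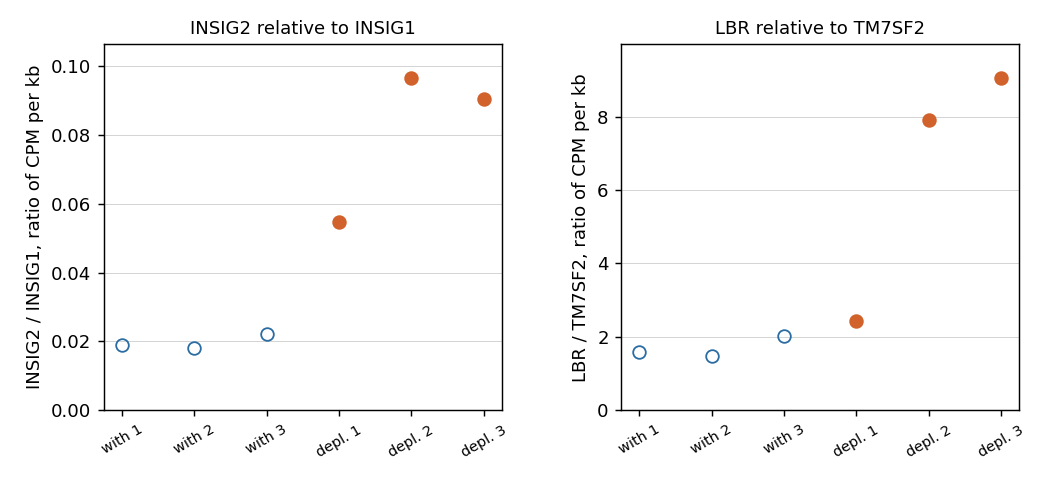
Ratio of INSIG2 to INSIG1 and of LBR to TM7SF2 (CPM per kilobase of transcript) in each of the 6 libraries, open circles with asparagine and filled circles depleted. Every depleted ratio lies above every ratio with asparagine in both panels, with depleted library 1 the lowest of the depleted ones. The ratios are not GC-corrected.

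The regulators themselves showed small or unsettled changes. SREBF2, which encodes SREBP-2 (chromosome 22, 41833079 to 41907308), had 851, 851 and 774 CPM with asparagine and 834, 575 and 561 CPM when depleted. Depleted library 1 lay within the range with asparagine and the other depleted libraries below it. SREBF2 did not pass the test (-0.35, 95% interval -0.76 to 0.055, limma adjusted p = 0.124), and its change was 0.083 after the GC correction (adjusted p = 0.144) and -0.54 without depleted library 1 (adjusted p = 2.42e-05). SCAP, the sterol-sensing escort of SREBP, had 205, 197 and 177 CPM with asparagine and 166, 102 and 105 CPM when depleted. It fell 1.55-fold (log2 fold change -0.66, SE 0.20, limma adjusted p = 0.0331), but its change was -0.11 after the GC correction (adjusted p = 0.0943), and the call was lost when any library other than depleted library 1 was left out (adjusted p 0.0662 to 0.112). NR1H2, the LXR-beta gene, had 132, 134 and 122 CPM with asparagine and 179.7, 91.02 and 83.4 CPM when depleted. Depleted library 1 was the highest of all 6 libraries and libraries 2 and 3 were the lowest. NR1H2 did not pass as deposited (-0.22, limma adjusted p = 0.536), was higher after the GC correction (0.42, adjusted p = 0.00170) and was lower without depleted library 1 (-0.57, adjusted p = 6.99e-05), so no direction could be given for it.

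Of the 4 genes of cholesterol uptake and movement inside the cell, 1 passed the test. NPC1 and NPC2 encode the proteins that release cholesterol from the lysosome. NPC1 had 42.99, 47.1 and 46.2 CPM with asparagine and 53.2, 53.2 and 49.7 CPM when depleted. NPC2 had 39.4, 41.4 and 39.9 CPM with asparagine and 42.6, 34.98 and 37.4 CPM when depleted. All depleted NPC1 values were above those with asparagine, as in 30.2% of all genes, while those of NPC2 overlapped. Neither passed the test (NPC1 0.19, 95% interval -0.083 to 0.47, limma adjusted p = 0.199; NPC2 -0.072, -0.38 to 0.23, adjusted p = 0.653), nor after the GC correction. STARD4, a carrier that moves sterol between membranes, had 43.4, 32.6 and 45.1 CPM with asparagine and 28.2, 66.1 and 69.9 CPM when depleted, lowest in depleted library 1 and highest in the other depleted libraries. It did not pass (0.34, 95% interval -0.49 to 1.17, limma adjusted p = 0.440; -0.24 after the GC correction), while without depleted library 1 its change was 0.75 (adjusted p = 0.000345). MYLIP, an LXR-induced ubiquitin ligase that limits lipoprotein receptors, had 22.4, 22.7 and 26.1 CPM with asparagine and 28.9, 34.6 and 32.01 CPM when depleted. Its groups did not overlap, and MYLIP rose 1.34-fold (log2 fold change 0.41, SE 0.14, limma adjusted p = 0.0426; 0.37 after the GC correction, adjusted p = 0.00993). That call was lost when any library other than depleted library 1 was left out (adjusted p 0.0763 to 0.156).

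ABCA1 showed the widest change of the 30 genes. It encodes the transporter that loads cholesterol onto apolipoprotein acceptors and is a classical LXR target (chromosome 9, 104781002 to 104928237). ABCA1 had 2.42, 1.35 and 2.87 CPM with asparagine and 15.9, 27.9 and 23.1 CPM when depleted, on 49 to 910 reads per library. Its lowest depleted value, in library 1, was several times its highest with asparagine. From 2.21 ± 0.780 to 22.3 ± 6.04 CPM (mean ± SD, n = 3 per group), ABCA1 rose 10.1-fold (log2 fold change 2.85, SE 0.27, limma adjusted p = 0.000488), and by 2.79 on the log2 scale after the GC correction. The call held under all 20 alternatives fitted (adjusted p 2.93e-07 to 0.00531). SOAT1, which esterifies cholesterol for storage, had 40.6, 41.4 and 44.5 CPM with asparagine and 31.6, 54.4 and 58.95 CPM when depleted. Depleted library 1 was the lowest of all and the others the highest. SOAT1 did not pass as deposited (0.14, limma adjusted p = 0.630), and it was lower after the GC correction (-0.40, adjusted p = 0.00239) but higher without depleted library 1 (0.42, adjusted p = 0.00112).

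**Figure D4:**
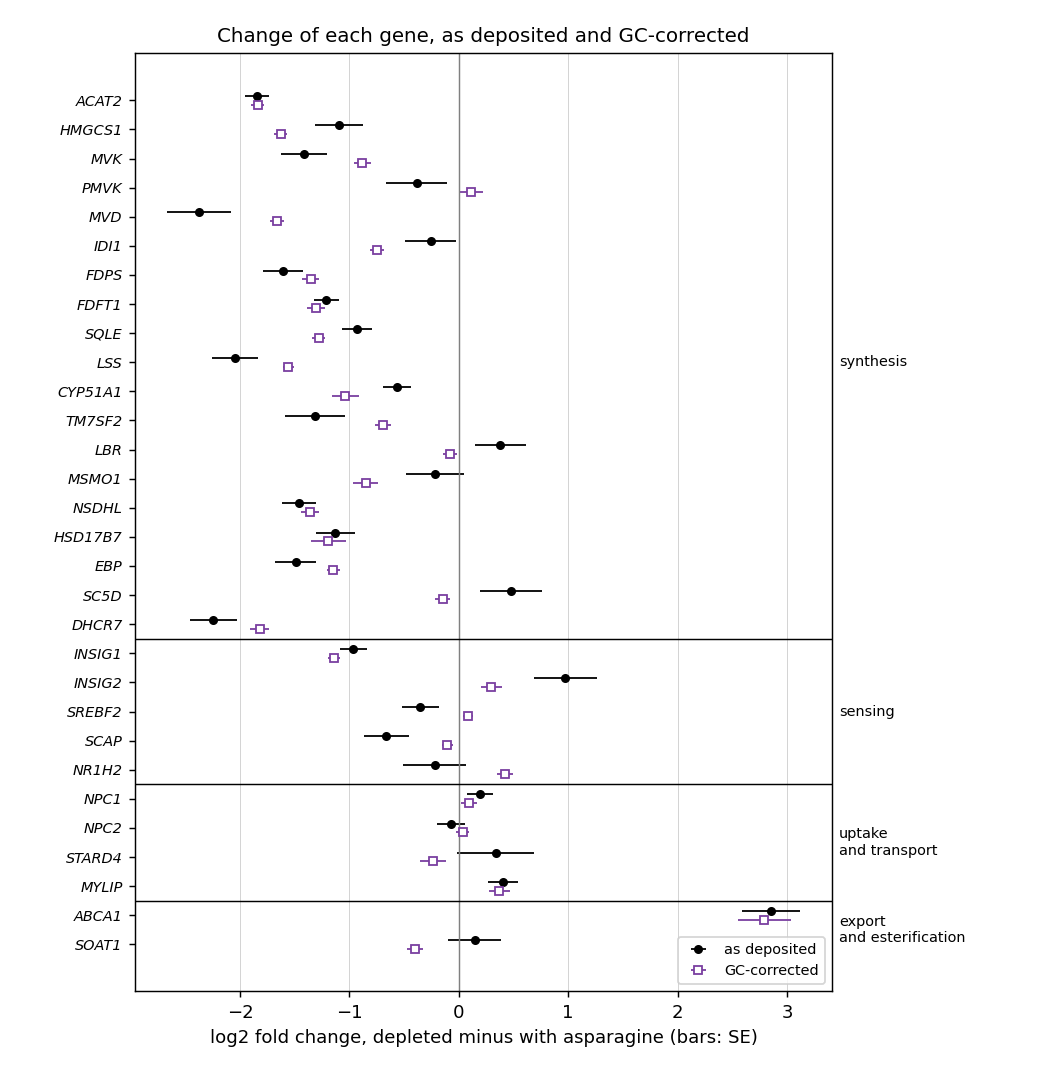
Log2 fold change of the 30 genes, depleted minus with asparagine (n = 3 per group), grouped by role. Filled circles are as deposited and open squares after the GC correction, with bars for limma's moderated SE. INSIG1 and 16 of the 19 synthesis genes are called lower after the correction, ABCA1 stands at 2.85 and 2.79, and SCAP moves close to 0.

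The rest of the pathway was read from 3 lists of genes that are not among the 31. Of 17 further genes of sterol synthesis and its regulation that were tested, 4 were lower and 5 higher, with a median log2 fold change of -0.073. These counts are near the shares of all genes (26.2% lower and 25.1% higher), as are the 6 lower and 4 higher after the GC correction (34.4% and 35.1%). TMEM97, an SREBP target that binds NPC1, fell from 106 ± 4.39 to 26.5 ± 2.52 CPM (log2 fold change -1.96, SE 0.13, limma adjusted p = 0.000149; -2.06 after the GC correction). MBTPS2, the intramembrane protease that frees SREBP, rose from 24.9 ± 1.88 to 53.6 ± 14.9 CPM, with a log2 fold change of 1.04 (limma adjusted p = 0.00966) and 0.40 after the GC correction. SREBF1, which encodes SREBP-1, a factor mostly of fatty acid synthesis, fell 1.97-fold to 105 ± 39.98 CPM (log2 fold change -1.02, SE 0.26, limma adjusted p = 0.0164; -0.37 after the GC correction, adjusted p = 0.00133), a call lost when any of 4 libraries was left out (adjusted p up to 0.0674). Of 12 genes of sterol uptake, transport and metabolism, 4 were lower and 2 higher (median -0.25), beside 26.2% and 25.1% of all genes. With the GC correction 5 were lower and 3 higher (median -0.052), beside 34.4% and 35.1%. Lipoprotein receptor genes went both ways there. SCARB1, the HDL receptor gene, fell 5.61-fold to 41.4 ± 8.15 CPM (log2 fold change -2.47, SE 0.16, limma adjusted p = 0.000164), LRP8, an apolipoprotein E receptor gene, fell 2.53-fold to 89.1 ± 6.17 CPM, and VLDLR, the VLDL receptor gene, rose 2.44-fold to 184 ± 22.9 CPM (limma adjusted p = 0.000377 and 0.00072). After the GC correction their changes were -2.01, -0.98 and 1.08 for SCARB1, LRP8 and VLDLR. GRAMD1A, a sterol transfer protein gene, had a log2 fold change of -0.97 (limma adjusted p = 0.0143), which was -0.34 after the correction (adjusted p = 0.000586). That call was lost when any of 3 libraries was left out (adjusted p up to 0.0589).

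Of 14 genes of the mevalonate branches that make other isoprenoids, 5 were lower and 3 higher, with a median of -0.24, beside 26.2% and 25.1% of all genes. With the GC correction 8 were lower and 2 higher, beside 34.4% and 35.1%. PDSS1, which starts the side chain of ubiquinone, fell 2.43-fold to 14.5 ± 0.613 CPM (log2 fold change -1.23, SE 0.12, limma adjusted p = 0.000561; -1.53 after the GC correction). GGPS1, geranylgeranyl diphosphate synthase, rose 2.16-fold to 50.5 ± 10.04 CPM (log2 fold change 1.06, SE 0.18, limma adjusted p = 0.00360; 0.55 after the GC correction). PGGT1B and RABGGTA, subunits of prenyl transferases, had log2 fold changes of 1.00 and -1.13 (limma adjusted p = 0.0139 and 0.0136), and 0.45 and -0.62 after the correction (adjusted p = 0.00140 and 0.00111). Both calls were lost when single libraries were left out, 3 for PGGT1B and 2 for RABGGTA (adjusted p up to 0.0593 and 0.0586).

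Some of these genes have near copies or overlapping neighbours in the annotation, and whether reads were shared with them was not tested. FDPS has 8 annotated pseudogenes that carry its symbol, CYP51A1 has 3 and HSD17B7 has 2, and how the authors treated reads that fit several copies is not given, so these levels are uncertain. Exons of 12 of the 30 genes overlap a gene on the opposite strand, among them ACAT2, HMGCS1, IDI1, FDPS, LSS, SREBF2 and NPC1. No strand setting is given in the sources used here, so reads from such partners cannot be told apart.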

How the data were processed

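Total RNA of 6 RS4;11 libraries was sequenced, and 1 table of gene values was used. The submitters' processing notes name GRCh38, STAR, FastQC and Subread's featureCounts. Versions, annotation, strand setting and how values were scaled and low genes removed were not given in the sources used here. The deposited values are a signal, normalized CPM made by the authors, and column totals of 918783 to 1031234 show that the divisor was not the column total alone. Dividing each column by a single step left whole numbers within 1e-06 of a read, which gave read totals of 29971364 to 51127073, and 3 reads are worth 0.0598 to 0.0920 CPM. Columns were matched to samples by arm and replicate number in their names. No label says that replicates came from separate cultures; p-values reflect the spread among these libraries, which may be technical.

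Genes were kept at 1 CPM or more in 3 or more libraries (11892 genes), and their log2(CPM + 1) values were fitted in R 4.3.3 with limma 3.58.1 (group as the only term, intensity trend, two-sided, Benjamini-Hochberg over all genes, threshold 0.05). "Fold" is the ratio of group means in CPM. SDs are over n = 3 libraries per group. SEs are limma's moderated SEs of the difference between the groups, which draw on the variance of all genes. The GC correction removed a lowess trend (span 0.3) on GC content from each library, where GC content and length are medians over protein-coding transcripts of GENCODE 29 (95.5% of genes). Promoter windows are those of RefSeq, GRCh38.p14, found for 27 members. The model was tested on simulated data.

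The members, lists and motifs were chosen with earlier results of these data known. All members are named, and of each further list up to 4 called genes with the largest change and at least 5 CPM in the higher group. One of the latter is not reported here. Alternatives were pseudocounts of 0.25 and 4 CPM, other filters, scalings and moderation, a replicate block, the GC correction, each library left out, a threshold of 0.01 and, chosen after seeing the data, voom weights on recovered reads and the GC correction with a block or without depleted library 1. Deviations from the group mean correlated between same-numbered libraries at r 0.083, -0.65 and 0.69 for numbers 1, 2 and 3. Library 3 with asparagine reached -0.74 with depleted library 1 and 0.71 with depleted library 2. This check therefore cannot decide whether replicate numbers pair the samples.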

Additional observations from a re-analysis of the deposited data

How the results depend on the processing

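The counts of synthesis genes that were lower stayed between 13 and 16 over the alternatives (main 14). Those higher numbered 0 to 2 with 1 library left out, the 2 being LBR and SC5D without depleted library 1. Lower and higher genes among all numbered 1814 to 4913 and 1728 to 4812 when 1 library was left out (highest without depleted library 1, lowest without library 2 with asparagine), 1703 and 1612 at a threshold of 0.01, and 4494 genes were higher under the GC correction when depleted library 1 was left out too. For the 11 other members the counts lower and higher were 1 to 4 and 1 to 5 with 1 library left out, 1 and 1 at 0.01, 1 lower after quantile normalization and 5 higher under the GC correction when depleted library 1 was left out too. Their median was -0.016 (without depleted library 3) to 0.18 with 1 library left out and 0.052 under that double change.

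Log2 fold changes that turned sign were those of genes not called as deposited. After the GC correction they were 0.11 for PMVK, -0.083 for LBR, -0.15 for SC5D, 0.083 for SREBF2, 0.42 for NR1H2, 0.036 for NPC2, -0.24 for STARD4 and -0.40 for SOAT1, and the same with the replicate block added, which alters errors only. Without depleted library 1 as well, they were -0.022 for LBR, -0.13 for SC5D, 0.091 for SREBF2, 0.36 for NR1H2, 0.023 for NPC2, -0.10 for STARD4 and -0.39 for SOAT1. With 1 library left out, IDI1 ranged from -0.43 to 0.017, MSMO1 from -0.42 to 0.094 and SOAT1 from -0.022 to 0.42. The cause was not tested. Under the replicate block 14 synthesis genes were lower and the only member to lose its call was MYLIP (adjusted p = 0.0873). It left 2989 genes lower and 2824 higher, and 6 of the 12 further uptake and transport genes lower (4 without it). Quantile normalization ended the calls of SCAP and MYLIP (adjusted p = 0.0707 and 0.0624). Pseudocount, filter, the 2 rescalings, moderation and voom weights on recovered reads changed no member's call or sign. A planned edgeR test of recovered reads was not run. The main fit treated the deposited values as a scaled signal and not as counts. Recovered reads served only the voom alternative and the statements of depth. Low depth limits mainly ABCA1 with asparagine (49 to 144 reads), and the groups of 3 libraries limit the rest.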
